A study of Mus musculus with 6 samples.

Results

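A set of 10 Sox genes known from mesenchyme and cartilage were followed in muscle and epithelium sorted from the embryonic mouse trachea. The members were taken by symbol: Sox4, Sox11, Sox12, Sox5, Sox6, Sox13, Sox8, Sox9, Sox17 and Sox18. All 10 had a row among the 23478 gene rows of the deposited count table, and all 10 passed the filter on low counts. The tracheas came from embryos of embryonic day 13.5 with the genotype Bmp4 f/f; gamma SMA eGFP, in which Bmp4 is floxed and eGFP reports gamma smooth muscle actin. Both populations share this genotype, every library carries the label control, and no Cre is named. Cells were loosened with TrypLE, stained for the epithelial surface protein Epcam and sorted, and the labels name the sorted populations Muscle and Epithelium without giving the gates. There were 3 libraries of Muscle and 3 of Epithelium, and the labels do not say whether they came from separate embryos or pools, so p-values measure the spread between these libraries, which may in part be technical. The labels name no sort of cartilage precursors or of other mesenchyme.

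Sox proteins bind DNA through a high-mobility-group (HMG) box and bend it, and they fall into subgroups by the likeness of that box. Sox9, of subgroup SoxE, is the factor that cartilage needs to form, and Sox5 and Sox6 of SoxD act with it on the genes of cartilage matrix. Sox4, Sox11 and Sox12 of SoxC are broadly present in progenitor cells of embryonic organs, and Sox17 and Sox18 of SoxF are known for their part in blood and lymph vessels. In the trachea, Sox9 marks the ventral and lateral mesenchyme that will become the cartilage rings, while smooth muscle forms dorsally.

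The start of the HMG box is shown first, because it defines the family and is the stretch in which reads of its members are most alike. Each line gives 54 bases of coding sequence, 5′ to 3′ on the gene's strand, from the GENCODE M21 transcripts (GRCm38, which is mm10, the build in the submitters' processing notes). Capitals mark the 25 bases that are the same in all 10 members. The first pair is SoxE, followed by SoxD, SoxC and SoxF.
Sox9, chr11:112782903-112782956, plus strand, exon 1: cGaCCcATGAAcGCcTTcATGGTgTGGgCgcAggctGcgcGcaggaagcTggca
Sox8, chr17:25570169-25570222, minus strand, exon 1: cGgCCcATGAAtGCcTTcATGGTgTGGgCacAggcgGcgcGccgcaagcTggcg
Sox5, chr6:143841220-143841273, minus strand, exon 13: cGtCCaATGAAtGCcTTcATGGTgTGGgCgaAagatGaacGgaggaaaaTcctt
Sox6, chr7:115489709-115489762, minus strand, exon 14: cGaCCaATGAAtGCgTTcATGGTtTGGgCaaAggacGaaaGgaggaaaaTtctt
Sox4, chr13:28952788-28952841, minus strand, exon 1: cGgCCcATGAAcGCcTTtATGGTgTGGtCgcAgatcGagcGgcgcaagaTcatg
Sox11, chr12:27342205-27342258, minus strand, exon 1: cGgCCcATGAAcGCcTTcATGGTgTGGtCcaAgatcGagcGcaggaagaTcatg
Sox17, chr1:4493146-4493199, minus strand, exon 4: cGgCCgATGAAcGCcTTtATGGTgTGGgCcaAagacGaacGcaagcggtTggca
Sox18, chr2:181671228-181671281, minus strand, exon 1: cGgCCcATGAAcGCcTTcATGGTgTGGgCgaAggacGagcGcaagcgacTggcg

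Over 237 bases of the box, the 8 pairs within a subgroup were 81.9% to 89.0% identical and the 37 pairs across subgroups 52.3% to 75.9%. Sox4 and Sox11 were the closest pair at 89.0%. They also shared the longest exact run between any 2 member transcripts, 48 bases, while no pair across subgroups shared more than 27. Sox4, Sox11 and Sox12 are single-exon genes, and in the other members the box spans 2 exons. The library kit does not keep the strand in standard use, so reads of antisense genes cannot be told apart. Exons of Gm26735 lie opposite 54.6% of the exonic length of Sox4, those of Sox5os1 opposite 9.25% of Sox5, those of Gm37587 opposite 16.8% of Sox17 and those of 2810468N07Rik opposite 10.6% of Sox8. Of these antisense genes 2810468N07Rik has a row of its own in the table, with 16 to 266 counts per library, against 101 to 340 counts for Sox8. It had more counts than Sox8 in Muscle 3 (166 against 152) and Epithelium 1 (171 against 108), and fewer in the other libraries.

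Total counts ranged from 11847432 to 54848820 per library. In the check of the sort all 8 smooth muscle markers were higher in muscle and all 8 epithelial markers higher in epithelium, led by Actg2, Tagln, Acta2 and Des and by Krt18, Epcam, Krt8 and Krt19. The summed level of the smooth muscle markers was 4060 counts per 1e6 counts (CPM) in Muscle 2 against 16530 and 17380 in Muscle 1 and 3, and 115 to 144 in epithelium. Muscle 2, Epithelium 2 and Epithelium 3 also carried counts of many genes known from sensory neurons of the nose. Over 1456 olfactory and vomeronasal receptor genes the mean was 0.535, 0.988 and 0.414 CPM in them and 0.00508 to 0.031 CPM in the other 3 libraries. Numbers in the file header, read here as dates, were earlier for Muscle 2 and Epithelium 2 than for the other 4 libraries. None of the 5 tested immune, 3 tested erythroid, 5 mesothelial or 4 lymphatic endothelial markers passed the test. Of 9 tested neural crest, glial and neuronal markers, Erbb3 was higher in epithelium (log2 fold change of muscle over epithelium -2.74 ± 0.34, SE, edgeR adjusted p = 0.00149) and none was higher in muscle.

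Sox9 was the one member whose level differed between the populations at an adjusted p under 0.05 (edgeR's quasi-likelihood test, Benjamini-Hochberg adjustment over 19375 genes). It was higher in muscle, and no member was higher in epithelium. Among all tested genes 10.7% passed, 6.58% higher in muscle and 4.11% higher in epithelium, so 1 of 10 members is close to the background share. The levels of Sox9 did not overlap between the groups, nor did those of Sox18, both with muscle above, which was so for 16.4% of tested genes. No member had epithelium above muscle in every library, which 10.5% of tested genes had. At an unadjusted p under 0.05, Sox9 was again the one member, against 21.7% of tested genes. In the other 8 members the libraries of the groups overlapped. The median log2 fold change of muscle over epithelium was 0.19 over the 10 members and -0.10 over all tested genes. With library size as the sole scaling the median of all genes was -0.33, so small fold changes below are to be read against that shift. For most of these genes, then, a higher level in the mesenchymal population was not shown.

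**Figure D1:**
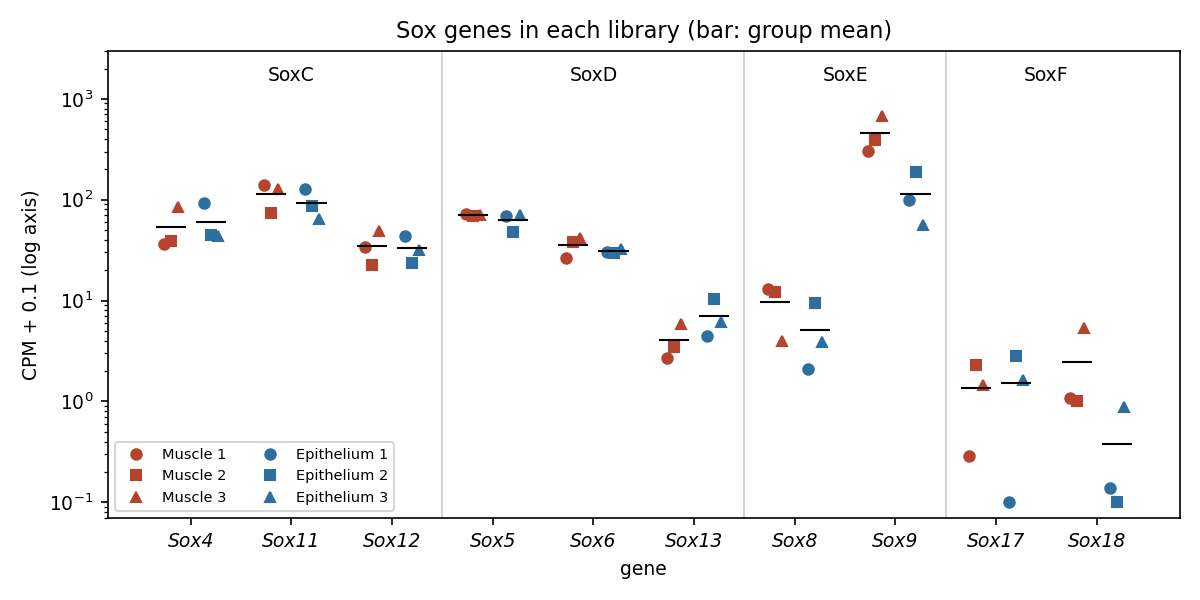
Level of the 10 Sox genes in each library, as CPM + 0.1 on a log axis, with muscle in red, epithelium in blue, a symbol for each replicate number and a black bar at the group mean (n = 3). The muscle libraries of Sox9, at 306.8 to 672.8 CPM, sit above its epithelial ones, while the other members except Sox18 overlap.

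Sox9, the SoxE factor that directs chondrocyte formation, had 306.8, 395.2 and 672.8 CPM in Muscle 1 to 3 and 100.1, 186.7 and 55.5 CPM in Epithelium 1 to 3. The lowest muscle library was thus above the highest epithelial one, Epithelium 2. The means were 458 ± 191 and 114 ± 66.7 CPM (SD, n = 3), a log2 fold change of 2.01 ± 0.47 (SE, 95% interval 0.94 to 3.07, edgeR adjusted p = 0.0262). The call was lost without Muscle 3 (edgeR adjusted p = 0.0717), Epithelium 1 (0.0583) or Epithelium 3 (0.0845), with RLE size factors (0.0529) and with library size only (0.0835). The log2 fold change stayed between 1.56 and 2.58 in all 17 alternative fits, and within the later header date it was 2.58 (edgeR adjusted p = 0.0166).

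Sox9 RNA in the epithelial libraries amounted to 21.8%, 40.7% and 12.1% of the muscle mean in Epithelium 1 to 3. The smooth muscle markers reached a median of 0.248%, 1.45% and 0.478% of their muscle mean in the same libraries. The cartilage matrix genes, described further below, reached a median of 15.3%, 99.4% and 50.1%. Each gene counts alike in this median, also those near background. Matn1, named after its values were seen, had a muscle mean of 0.533 CPM and reached 777% of it in Epithelium 2. The matrix genes summed to 388, 531 and 249 CPM in Epithelium 1 to 3, against 805, 1532 and 1072 CPM in Muscle 1 to 3. Among them Matn4 reached 5.19%, 14.6% and 2.74%, Col9a1 5.27%, 23.1% and 4.01%, and Col2a1 95.6%, 72.5% and 50.1%. Epithelium 2 was the highest in each of these measures except Col2a1. The part of other mesenchyme carried into the epithelial sort was not tested. Sox9 was in the top 25% of tested genes in every epithelial library, at the percentile 86.5, 96.9 and 77.4. In muscle it stood at 96.6, 98.6 and 98.9. In these bulk samples, fewer cells with a gene on and less RNA per cell cannot be told apart.

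Sox8, the other SoxE member, which overlaps with Sox9 in function in several tissues, was far less abundant. Its levels were 12.9, 12.1 and 3.84 CPM in Muscle 1 to 3 and 2.01, 9.29 and 3.79 CPM in Epithelium 1 to 3. Muscle 3, the muscle library with the most Sox9, had the least Sox8, and it lay within the epithelial range. The log2 fold change of 0.94 ± 0.72 (95% interval -0.69 to 2.57, edgeR adjusted p = 0.613) did not pass the test in any fit. The ratio of Sox9 CPM to Sox8 CPM ran from 14.6 in Epithelium 3 to 175 in Muscle 3, with the groups overlapping.

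The SoxD genes Sox5 and Sox6, partners of Sox9 on cartilage genes, did not pass the test, and their intervals were the narrowest of the family. Sox5 had 72.8, 68.5 and 69.9 CPM in Muscle 1 to 3 and 68.6, 47.8 and 70.1 CPM in Epithelium 1 to 3. Epithelium 2 alone was lower, and the other 5 libraries lay within a few CPM of each other. Its log2 fold change was 0.18 ± 0.23 (95% interval -0.35 to 0.71, edgeR adjusted p = 0.853).

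Sox6 had 26.1, 38.2 and 41.8 CPM in Muscle 1 to 3 and 30.4, 29.3 and 32.0 CPM in Epithelium 1 to 3. The epithelial libraries fell inside the muscle range, and the log2 fold change was 0.21 ± 0.25 (95% interval -0.35 to 0.77, edgeR adjusted p = 0.823). For Sox5 and Sox6 the sign turned with library size as the sole scaling, and both intervals leave out a difference as large as that estimated for Sox9. The ratio of Sox9 CPM to the summed CPM of Sox5 and Sox6 was 3.10, 3.70 and 6.02 in Muscle 1 to 3. It was 1.01, 2.42 and 0.543 in Epithelium 1 to 3. The lowest ratio in muscle was above the highest in epithelium, that of Epithelium 2.

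Sox13, the third SoxD gene, was the member with the lowest fitted log2 fold change, -0.81 ± 0.67 (95% interval -2.32 to 0.70, edgeR adjusted p = 0.661). It had 2.62, 3.35 and 5.79 CPM in Muscle 1 to 3 and 4.33, 10.3 and 6.05 CPM in Epithelium 1 to 3. Muscle 3 lay above Epithelium 1, so the groups overlapped. The fitted value was below 0 in all 17 alternative fits and past the threshold in none. Its highest level was in Epithelium 2, the library with the most receptor background, where it exceeded 100% of the receptor genes.

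The SoxC genes, which are known to keep progenitor cells of many organs alive and growing, were present in both populations, and none of the 3 passed the test. Sox11 had 139.3, 73.8 and 127.7 CPM in Muscle 1 to 3 and 127.0, 86.6 and 63.9 CPM in Epithelium 1 to 3. Its spread within each group was wider than the distance between the group means, and its log2 fold change was 0.30 ± 0.34 (95% interval -0.46 to 1.06, edgeR adjusted p = 0.809).

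Sox4 had 36.0, 38.7 and 85.4 CPM in Muscle 1 to 3 and 92.9, 44.2 and 43.5 CPM in Epithelium 1 to 3. In each group 1 library, Muscle 3 and Epithelium 1, stood about 2 times above the other pair. The log2 fold change was -0.17 ± 0.42 (95% interval -1.13 to 0.78, edgeR adjusted p = 0.93), and leaving out Muscle 1, Muscle 2 or Epithelium 1 turned its sign.

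Sox12 was likewise highest in Muscle 3 at 48.4 CPM and in Epithelium 1 at 43.6 CPM. Its other libraries had 33.6 and 22.3 CPM in Muscle 1 and 2 and 23.4 and 31.7 CPM in Epithelium 2 and 3. The log2 fold change of 0.08 ± 0.34 (95% interval -0.70 to 0.86, edgeR adjusted p = 0.96) changed sign in 7 of 17 alternative fits. The 3 SoxC genes together summed to 209, 135 and 261 CPM in Muscle 1 to 3 and 263, 154 and 139 CPM in Epithelium 1 to 3. Muscle 3 and Epithelium 1 are also the libraries with the largest total counts, and the part of depth in these levels was not tested.

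The SoxF genes, which act in endothelial cells, were at 0 to 5.18 CPM in every library. Sox18 had 26, 18 and 205 counts in Muscle 1 to 3 (0.988, 0.899 and 5.18 CPM) and 2, 0 and 21 counts in Epithelium 1 to 3 (0.0372, 0 and 0.789 CPM). Every muscle library was above every epithelial one, although Muscle 2 and Epithelium 3 lay close together. For Epithelium 2 a count of 0 allows up to 3 counts, or 0.2 CPM, so it remains below the muscle libraries at that bound. The log2 fold change of 3.07 ± 2.08 (95% interval -1.63 to 7.77, edgeR adjusted p = 0.524) did not pass the test. In Muscle 2 and Epithelium 3 the level of Sox18 exceeded 77.8% and 84.2% of the receptor genes, so there it could not be set apart from background counts.

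Sox17 had 5, 44 and 54 counts in Muscle 1 to 3 (0.19, 2.20 and 1.37 CPM) and 0, 41 and 41 counts in Epithelium 1 to 3 (0, 2.74 and 1.54 CPM). The low libraries were those numbered 1 in either group, and the groups overlapped. Its log2 fold change was -0.18 ± 2.03 (95% interval -4.78 to 4.41, edgeR adjusted p = 0.985), which leaves the direction unsettled. The level of Sox17 exceeded 96.2%, 90.9% and 95.9% of the receptor genes in Muscle 2, Epithelium 2 and Epithelium 3.

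Markers of endothelial cells were measured beside the SoxF genes, since a few vessel cells could carry them into either sort. Of 12 endothelial markers Flt1 and Esam were higher in muscle and none was higher in epithelium. The share of all tested genes higher in muscle was 6.58%. Flt1 encodes a VEGF receptor, and its log2 fold change was 2.48 ± 0.61 (edgeR adjusted p = 0.0325). Esam, a junction protein, had 2.80 ± 0.71 (edgeR adjusted p = 0.0358). Both calls were lost without Muscle 1 (edgeR adjusted p = 0.107 and 0.0791), without Muscle 3 (0.0953 and 0.077) and without Epithelium 3 (0.158 and 0.151). That of Flt1 was also lost without Muscle 2 (0.0769), and both were lost with RLE size factors (0.065 and 0.0705) and with library size only (0.109 and 0.113). The markers summed to 147.5, 154.7 and 179.9 CPM in Muscle 1 to 3 and 18.4, 105.1 and 46.7 CPM in Epithelium 1 to 3. Muscle 3, with the most Sox18, had the highest sum. Of the 12 markers, 4 had every muscle library above every epithelial one, against 16.4% of tested genes, and none had epithelium above. Besides Flt1 and Esam these were Tek (log2 fold change 2.20 ± 0.83, edgeR adjusted p = 0.149) and Erg (1.63 ± 0.84, edgeR adjusted p = 0.329), named after their values were seen. Other markers, also named after their values were seen, overlapped between the groups. Cdh5, the cadherin of vessel walls, had 0.076, 3.94 and 1.87 CPM in Muscle 1 to 3 and 0, 4.55 and 1.01 CPM in Epithelium 1 to 3 (log2 fold change 0.09 ± 2.04, edgeR adjusted p = 0.99). Tie1, a receptor of endothelial cells, had 0, 1.85 and 6.95 CPM in Muscle 1 to 3 and 0, 5.61 and 2.82 CPM in Epithelium 1 to 3 (0.07 ± 2.08, edgeR adjusted p = 0.99). The fitted values of Pecam1 (0.21), Kdr (0.25), Cldn5 (0.27) and Emcn (-1.0) also did not pass the test, and the median over the 12 markers was 0.26. In Epithelium 1, where Sox17 had no count and Sox18 had 2, Cdh5, Tie1 and Emcn had none. The other markers had 4 to 657 counts in that library, with 139 for Flt1, 46 for Esam and 657 for Egfl7, named after its values were seen. The part of vessel cells in the SoxF levels was not tested.

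**Figure D2:**
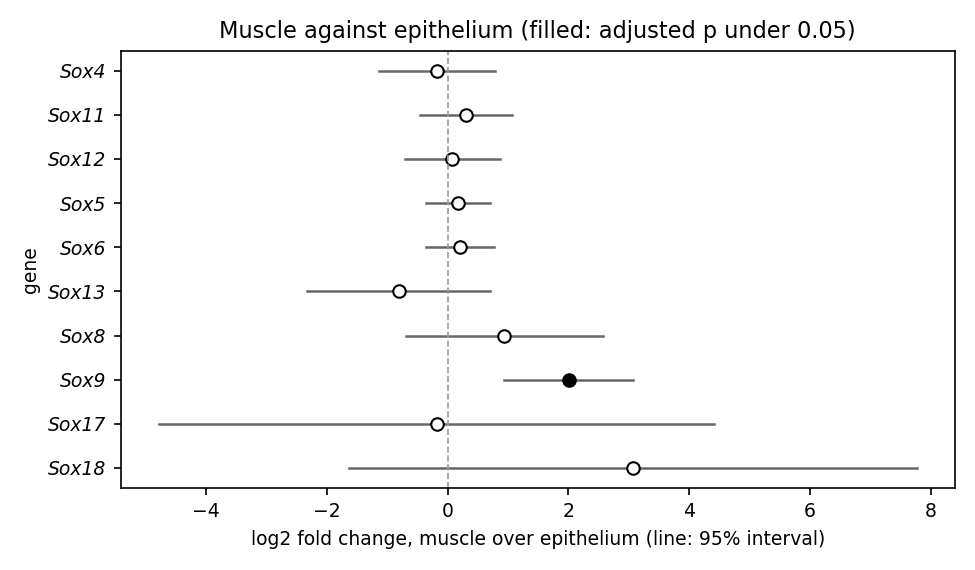
Log2 fold change of muscle over epithelium for the 10 Sox genes, with the 95% interval of the edgeR fit as a line and a filled point where the adjusted p is under 0.05. The interval of Sox9, from 0.94 to 3.07, lies to the right of 0, those of Sox5 and Sox6 are narrow around 0, and those of Sox17 and Sox18 span several units.

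Levels of different genes were compared per kilobase of the longest coding transcript that holds the box (GENCODE M21), since longer transcripts gather more reads. On this scale Sox9 was first in both populations, at 111 ± 46.2 CPM per kilobase in muscle and 27.6 ± 16.1 in epithelium (SD, n = 3). In muscle Sox11 (13.7 ± 4.2), Sox4 (11.1 ± 5.79), Sox5 (9.72 ± 0.299) and Sox12 (7.81 ± 2.94) followed within each other's spread. Below them were Sox6 (4.08 ± 0.949), Sox8 (3.20 ± 1.67), Sox18 (1.45 ± 1.51), Sox13 (1.06 ± 0.449) and Sox17 (0.4 ± 0.322), where Sox6 and Sox8 did not differ beyond their spread and neither did the last 3. Library by library, Sox11 was above Sox12 and Sox13 above Sox17 in all of Muscle 1 to 3. In epithelium the order after Sox9 was Sox4 (12.6 ± 5.90), Sox11 (11.1 ± 3.85), Sox5 (8.58 ± 1.72), Sox12 (7.39 ± 2.28), Sox6 (3.53 ± 0.158), Sox13 (1.87 ± 0.831), Sox8 (1.68 ± 1.27), Sox17 (0.456 ± 0.439) and Sox18 (0.170 ± 0.275). There the group spreads of Sox9 and Sox4 overlapped. Within each epithelial library Sox9 was above Sox4, at 24.2, 45.2 and 13.4 against 19.4, 9.23 and 9.06 CPM per kilobase in Epithelium 1 to 3. Divided by the union of all annotated exons instead, Sox5 and Sox12 changed places in both populations, as did Sox6 and Sox8 in muscle and Sox13 and Sox8 in epithelium.

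The make-up of the family's RNA followed Sox9. Its share of the summed CPM of the 10 genes was 48.6%, 60.3% and 63.3% in Muscle 1 to 3 and 21.3%, 42.4% and 18.0% in Epithelium 1 to 3. Muscle libraries thus held the larger share in each case, with Epithelium 2 coming closest. Sox11 was the largest contributor in Epithelium 1 at 27.1%, and Sox5 in Epithelium 3 at 22.7%. These shares are not per length, and per kilobase Sox9 was first in both libraries, at 24.2 against 15.3 CPM per kilobase for Sox11 in Epithelium 1 and 13.4 against 9.68 for Sox5 in Epithelium 3. The summed CPM of the family was 631, 655 and 1060 in Muscle 1 to 3 and 469, 440 and 309 in Epithelium 1 to 3, without overlap. Of the subgroup sums only that of SoxE, which holds Sox9, was also without overlap (320 to 677 CPM in muscle, 59.3 to 196 in epithelium). Those of SoxC, SoxD (101 to 117 and 87.4 to 108 CPM) and SoxF (1.18 to 6.55 and 0.0372 to 2.74 CPM) overlapped. Sox8 held 0.362% to 2.11% and Sox13 0.416% to 2.34% of the sum. Sox17 and Sox18 each held under 1% in every library.

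**Figure D3:**
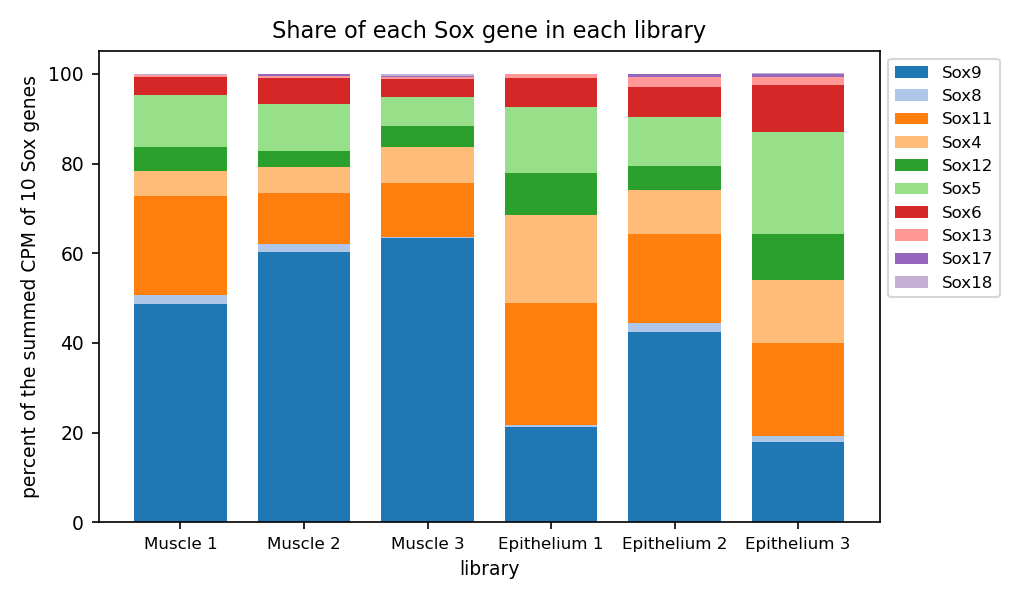
Stacked bars of the percent that each Sox gene takes of the summed CPM of the 10 genes, one bar per library. Sox9, at the base, takes 48.6% to 63.3% in the muscle libraries and 18.0% to 42.4% in the epithelial ones, where SoxC and SoxD genes take the larger part.

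Of 9 further Sox genes in the table, 8 were tested, and 2 of them, Sox2 and Sox21, were higher in epithelium while none was higher in muscle. Over all tested genes 4.11% were higher in epithelium. Sox2, the factor of foregut and airway epithelium, had 0.380 to 3.35 CPM in muscle and 36.2 to 62.8 CPM in epithelium, a log2 fold change of -5.31 ± 0.80 (edgeR adjusted p = 0.00374), called in all 17 alternative fits. Sox21, which is close to Sox2 in its box and is found with it in airway epithelium, had 0 to 0.899 CPM in muscle and 9.98 to 17.8 CPM in epithelium (log2 fold change -4.60 ± 1.26, edgeR adjusted p = 0.050). Its call held in 6 of 17 alternative fits, and the 11 in which it was lost included those without Muscle 1 (adjusted p = 0.12), Epithelium 1 (0.0584), Epithelium 2 (0.115) or Epithelium 3 (0.122). Sox10, the SoxE gene of neural crest and glia, had 2.55 to 6.59 CPM in muscle and 2.60 to 10.4 CPM in epithelium (log2 fold change -0.39 ± 0.83, edgeR adjusted p = 0.92). Sox7, the third SoxF gene, had 0.076 to 2.75 and 0.0558 to 1.60 CPM (log2 fold change 0.92 ± 1.91, edgeR adjusted p = 0.92).

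Cartilage matrix genes, many of which Sox9 and its SoxD partners are known to activate, were read from the same fit. The list and that of cartilage regulators were chosen with earlier results of these data known. Of 17 matrix genes tested, 4 were higher in muscle (Matn4, Col11a1, Col9a1 and Col9a2) and none in epithelium, with a median log2 fold change of 0.49. The background shares over the 19375 tested genes were 6.58% called toward muscle and 4.11% toward epithelium, with a median of -0.1. Matn4, a matrilin of the matrix, had 95.1, 205.4 and 143.5 CPM in Muscle 1 to 3 and 7.68, 21.6 and 4.06 CPM in Epithelium 1 to 3. Its log2 fold change was 3.75 ± 0.61 (edgeR adjusted p = 0.00493). Col9a1, a chain of collagen IX, had 163.3, 184.8 and 163.5 CPM in muscle and 8.996, 39.4 and 6.84 CPM in epithelium (3.23 ± 0.63, edgeR adjusted p = 0.0113). Both were called in all 17 alternative fits.

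In both genes, as for Sox9, Epithelium 2 was the highest epithelial library. Col9a2 (2.77 ± 0.61, edgeR adjusted p = 0.0201) and Col11a1, a chain of collagen XI (1.81 ± 0.33, edgeR adjusted p = 0.00843), also had muscle above epithelium in all libraries. The call of Col9a2 was lost without Muscle 2 (adjusted p = 0.0604), Muscle 3 (0.0571), Epithelium 1 (0.0588) or Epithelium 3 (0.0701), and that of Col11a1 without Epithelium 3 (0.0502). Library size as the sole scaling also ended both (0.0785 and 0.0514).

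Neither the main collagen of cartilage nor its large proteoglycan passed the test. Col2a1 had 179.1, 459.4 and 284.0 CPM in Muscle 1 to 3 and 294.0, 222.8 and 154.1 CPM in Epithelium 1 to 3, with overlapping groups (log2 fold change 0.46 ± 0.38, edgeR adjusted p = 0.66). Acan, the aggrecan gene, had 2.97, 14.7 and 9.02 CPM in muscle and 0, 9.09 and 1.62 CPM in epithelium (1.33 ± 1.52, edgeR adjusted p = 0.82). Its estimate was imprecise, from 0.76 without Epithelium 1 to 5.46 with limma-voom in the 16 fits with at least 2 libraries per group. Without the 3 libraries with the most receptor background it was 10.82, with Epithelium 1, which had no Acan count, as the sole epithelial library. In the reported fit 1 SE around the estimate for Acan includes the log2 fold change of Sox9. The matrix genes summed to 805, 1532 and 1072 CPM in Muscle 1 to 3 and 388, 531 and 249 CPM in Epithelium 1 to 3. Muscle 2, the muscle library with the least smooth muscle RNA, had the largest sum, while Sox9 was highest in Muscle 3. The part of a different mix of cells in Muscle 2 was not tested.

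Among the 16 cartilage regulators, all tested, 6 genes were higher in muscle and 1, Runx1, in epithelium, with a median log2 fold change of 0.50. These counts stand beside 6.58% and 4.11% of all tested genes. Trps1, a zinc finger factor of growth plate cartilage, had 138.3, 116.2 and 140.8 CPM in Muscle 1 to 3 and 55.1, 47.9 and 51.2 CPM in Epithelium 1 to 3 (1.36 ± 0.22, edgeR adjusted p = 0.00475) and was called in all 17 alternative fits. Wwp2, a ubiquitin ligase gene that Sox9 is known to activate in cartilage, had a log2 fold change of 1.03 ± 0.25 (edgeR adjusted p = 0.0282). When single libraries were left out its call was kept in 1 of 6 fits, that without Muscle 2 (adjusted p = 0.0416), and the others gave 0.061 (Muscle 1), 0.0826 (Muscle 3), 0.0654 (Epithelium 1), 0.0782 (Epithelium 2) and 0.224 (Epithelium 3).

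Zeb1 (3.90 ± 0.71, edgeR adjusted p = 0.00883) and Mef2c (3.62 ± 0.79, edgeR adjusted p = 0.0197) are also known from mesenchyme and muscle. The call of Zeb1 was lost without Epithelium 3 (adjusted p = 0.0577). That of Mef2c was lost with library size only (0.056) and without Muscle 1 (0.0831), Muscle 2 (0.0568), Muscle 3 (0.0701) or Epithelium 3 (0.124). Foxc2 and Gdf5, named after their values were seen, were the remaining pair. Runx1, a Runt factor, was higher in epithelium (-2.26 ± 0.40, edgeR adjusted p = 0.00761) in all 17 alternative fits. The list is therefore not one-sided, and Runx2, the bone and hypertrophic cartilage factor, named after its value was seen, had overlapping groups (0.44 ± 0.72, edgeR adjusted p = 0.90).

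**Figure D4:**
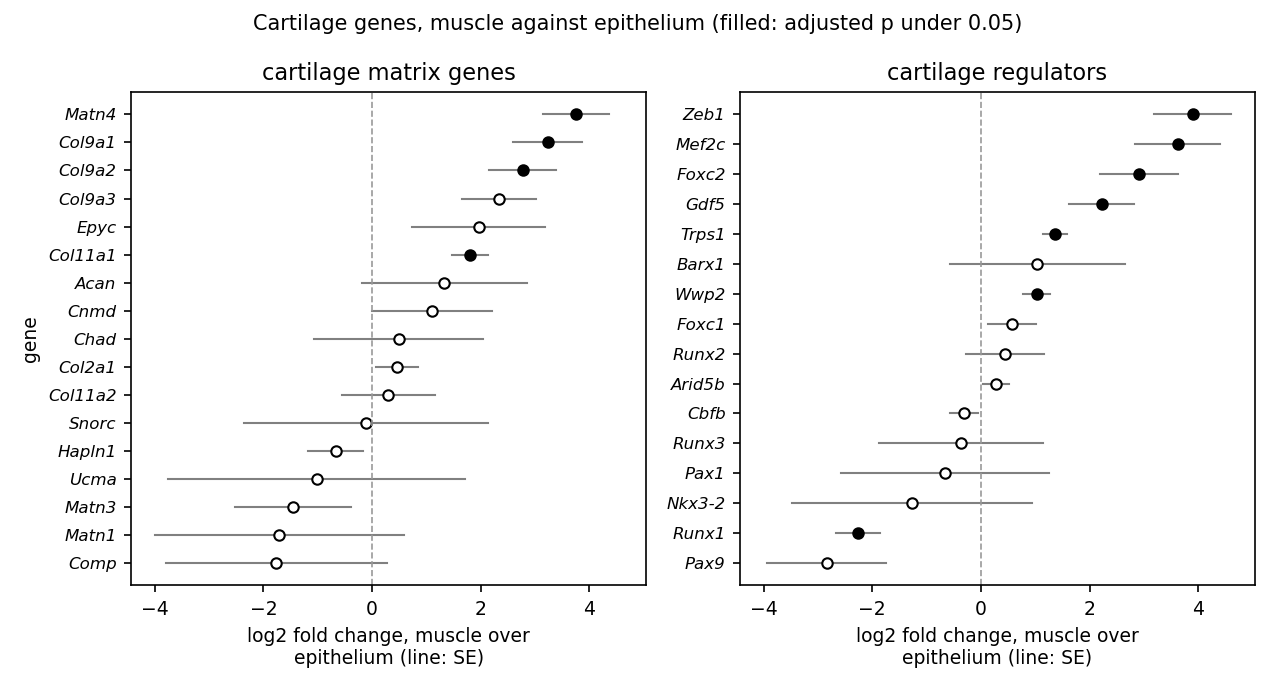
Log2 fold change of muscle over epithelium for 17 cartilage matrix genes (left) and 16 cartilage regulators (right), with the SE as a line and filled points at an adjusted p under 0.05. In the matrix list 4 filled points lie to the right, led by Matn4 at 3.75, and Col2a1 at 0.46 and Acan at 1.33 are open.

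The genes whose levels ran most like those of a member were found by the root mean square difference of log2 CPM over the 6 libraries, each gene centred on its own mean, among the 9370 other genes that averaged 4 or more in log2 CPM. For Sox9, which spanned 3.60 log2 units, the nearest were Pth1r (0.19), Scube1 (0.23) and Tbx2 (0.25). Pth1r, the receptor of parathyroid hormone and its related peptide in cartilage and bone, had 23.0, 20.02 and 48.2 CPM in Muscle 1 to 3 and 5.99, 11.2 and 3.27 CPM in Epithelium 1 to 3. It thus shared with Sox9 the peak in Muscle 3 and the order of the epithelial libraries. Tbx2, a T-box factor of lung and tracheal mesenchyme, had 50.7, 49.6 and 94.0 CPM in muscle and 11.4, 29.5 and 10.6 CPM in epithelium.

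For Sox4 the nearest genes were Srm (0.18), Aplp1 (0.19) and Trim28 (0.19), all with groups that overlapped as those of Sox4 did. For Sox5, which spanned 0.61 log2 units, they were Nip7 (0.05), Mettl4 (0.05) and Orc2 (0.06), which likewise had their lowest level in Epithelium 2. For Sox17, which itself lay under the level required of the compared genes, the nearest were farther off: Fry (0.77), Rpl29 (0.88) and Slc30a4 (0.96). Rpl29, a ribosomal protein gene, had 13.04 and 17.3 CPM in the libraries numbered 1 and 167.5 to 284.5 CPM in the other 4, so it shared with Sox17 the low level in those numbered 1. Among the members themselves the nearest pairs were Sox5 with Sox6 (0.27), Sox4 with Sox12 (0.33) and Sox11 with Sox12 (0.34), followed by pairs across subgroups, Sox12 with Sox5 (0.36) and Sox11 with Sox5 (0.43). Within subgroups Sox4 and Sox11 lay 0.51 apart, Sox6 and Sox13 0.65, Sox8 and Sox9 1.16 and Sox17 and Sox18 2.52.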

How the data were processed

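RNA was sequenced from 6 libraries, 3 of muscle and 3 of epithelium, made with a SMART-Seq kit for low input and Nextera XT. The authors deposited whole-number counts per gene symbol. The submitters' processing notes name Trim Galore, Bowtie2, Cufflinks, DESeq and mm10, without roles or versions; the annotation and counting program are not given in the sources used here. Low counts were mostly even (73.8% to 79.6% of counts from 1 to 19), so halved counts were an alternative. Such libraries carry no molecular identifiers, so intervals and the floor of 3 counts cover counting error only.

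The deposited counts were analysed in R 4.3.3 with edgeR 4.0.16: filterByExpr by group, TMM scaling, a robust two-sided quasi-likelihood test without covariates over 19375 genes, calling adjusted p under 0.05. CPM uses TMM-scaled library sizes; SE and 95% intervals were derived from the test statistic. In the comparison of patterns, log2 CPM had a prior count of 2. DESeq2 1.42.0 and limma 3.58.1 served as alternatives. Cnmd and Snorc were matched through RefSeq synonyms (GRCm38.p6) and transcripts and positions taken from GENCODE M21. The members, lists and alternatives were chosen with earlier results of these data known. Besides the members, the text names up to 4 genes per list and direction with the smallest p among those called, Sox2, Sox10, Sox7, Col2a1 and Acan, and the 3 genes nearest to Sox9, Sox4, Sox5 and Sox17; others are marked.

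The identifier row of the file header holds numbers read here as dates, an earlier one for both libraries numbered 2 and a later one for the other 4.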

Additional observations from a re-analysis of the deposited data

How the results depend on the processing

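Each result was recomputed in 17 alternative fits, 1 of them, without the 3 libraries with the most receptor background (Muscle 2, Epithelium 2 and Epithelium 3), chosen after seeing the data. The number of Sox genes higher in muscle, 1 in the reported fit, was 0 with RLE size factors, with library size only and with the replicate block, and 0 to 1 when single libraries were left out. It was 1 in the other 8 fits. The number higher in epithelium was 0 in all 17. Genes called over the whole table numbered 2071, against 3539 with DESeq2, 3178 with the header date as a term and 1169 (without Epithelium 3) to 2573 (without Muscle 2) with a library left out. With library size only, 42.0% of calls were higher in muscle, against 61.5%. The libraries share replicate numbers, but the numbers are not shown to pair them: deviations from the group means correlated across genes at r = 0.59, 0.73 and -0.57 for numbers 1, 2 and 3, and the header sets apart number 2 alone. With the replicate block 2418 genes were called, and Sox9 had a log2 fold change of 2.07 (edgeR adjusted p = 0.0783). Flt1, Esam, Sox21 and Zeb1 also lost their calls in that fit (edgeR adjusted p = 0.0559, 0.0663, 0.0667 and 0.0547).

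Signs turned in members near 0 or at low counts, and beside the members in Sox10 and Col2a1, none of them past the threshold. Col2a1 was not at low counts, with 3334 to 15819 per library and a log2 fold change of 0.46 in the reported fit. With single libraries left out, the ranges were -0.23 to 0.36 for Sox12, -0.03 to 0.27 for Sox5, -0.05 to 0.62 for Sox11, -0.68 to 0.30 for Sox4, -0.85 to 0.79 for Sox17 and -0.89 to 0.51 for Sox10. Sox12 was -0.04 with RLE and with DESeq2, -0.20 with library size only and -0.27 without the 3 libraries. Sox5 was -0.05 with library size only, -0.03 with the later date only and -0.13 without the 3 libraries. Sox6 was -0.03 with library size only and without the 3 libraries. Sox11 was -0.11 without the 3 libraries. Sox17 was 2.64 with limma-voom, 0.90 with the replicate block and 7.89 without the 3 libraries, where Epithelium 1, with no count, was the sole epithelial library and is assumed to vary like the muscle ones. Sox10 was 0.08 with limma-voom, and Col2a1 -0.02 with the later date only and -0.53 without the 3 libraries. The cause was not tested. At 0 to 54 counts per library for Sox17 and 0 to 205 for Sox18, neither the direction of Sox17 nor a difference in Sox18 was resolved.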
